A study of Mus musculus with 3 samples.

Results

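The 10 genes described here encode secreted angiogenic factors and the receptors and vessel proteins that go with them: Vegfa, Vegfb, Kdr, Flt1, Tek, Angpt1, Angpt2, Plvap, Esm1 and Pdgfrb. They were taken by name, without use of their measured values, from 15741 genes that both deposited tables hold. Vascular endothelial growth factors are released by tissue cells and bind receptor tyrosine kinases on endothelial cells. Angiopoietins act on the endothelial receptor encoded by Tek, and mural cells (pericytes and smooth muscle cells), which wrap capillaries and small vessels, are held there in part through the receptor encoded by Pdgfrb. Pancreatic islets carry a dense network of fenestrated capillaries, and endocrine cells of the islet are a known source of Vegfa.

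Islets came from 6 mice that carried Ngn3-CreERT, a tamoxifen-inducible Cre recombinase, and the reporter R26-CAG-TdTomato. They were collected 10 days after tamoxifen, separated into single cells and run as 3 samples on a 10x Genomics 3′ kit. All samples share this genotype, treatment and time, so there is no untreated or Cre-negative group, and the comparisons below are between cell classes. The Cre is driven by Ngn3, an endocrine progenitor gene, and no sort is named in the labels. Replicates 2 and 3 each pooled 2 mice. Their cells lie in 1 joint table whose columns cannot be tied to a sample, so the data amount to 2 libraries: library 1 (replicate 1) and the joint table. The p-values therefore measure only the spread between these 2 tables.

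Library 1 held 1146 cells and 27474046 UMIs (unique molecular identifiers, each standing for 1 captured RNA), and the joint table held 13042 cells and 196833349 UMIs after 3008 repeated columns were dropped. The joint table has 3 blocks of barcodes, given below only as values. They shared 5, 1 and 0 barcodes with library 1, and 6, 4 and 4 with each other, and none of those shared between blocks had identical values. After filtering, cells were called beta (Ins1 and Ins2 together at least 3000 of 10000 UMIs), alpha, delta or PP (Gcg, Sst or Ppy at least 200) when they passed 1 threshold only. This gave 468 beta, 104 alpha, 25 delta and 18 PP cells in library 1, and 6981, 924, 230 and 236 in the joint table, while 98 and 1078 cells passed several thresholds. Endothelial-like clusters (27 and 702 cells) and mural-like clusters (12 and 207 cells) were built without the 10 genes and named from other markers. All 14 endothelial and 15 mural markers were detected in their own classes in both tables. Emcn was present in 98.4% and Pecam1 in 89.7% of the joint endothelial-like cells, but Cldn5 in only 1.99%, and Rgs5 was present in 99.5% of the joint mural-like cells.

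RefSeq windows of GRCm38.p6 were available for 6 of the 10 genes. Those of Vegfa, a ligand found in endocrine cells, and of Kdr and Flt1, which encode its receptors, are shown to set a source gene beside its receptor genes. Each is the 250 bases before the annotated start, 5′ to 3′ on the minus strand of its gene: Vegfa chr17:46032378-46032627, Kdr chr5:75978456-75978705 and Flt1 chr5:147726012-147726261. Capitals mark matches on either strand to 4 motifs: GGGCGG (the GC box), the ETS-type motif AGGAAG, the hypoxia response core ACGTG and the cyclic AMP response element TGACGTCA. None of the 4 contains another.
Vegfa: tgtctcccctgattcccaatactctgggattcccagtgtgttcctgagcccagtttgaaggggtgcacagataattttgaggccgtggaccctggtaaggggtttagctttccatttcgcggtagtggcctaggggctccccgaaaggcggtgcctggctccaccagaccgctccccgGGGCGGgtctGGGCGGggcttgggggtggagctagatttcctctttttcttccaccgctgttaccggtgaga
Kdr: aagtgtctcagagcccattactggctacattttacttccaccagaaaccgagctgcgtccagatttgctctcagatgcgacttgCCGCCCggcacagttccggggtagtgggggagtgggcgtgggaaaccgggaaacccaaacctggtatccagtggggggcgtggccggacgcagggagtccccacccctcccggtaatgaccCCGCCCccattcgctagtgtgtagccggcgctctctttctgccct
Flt1: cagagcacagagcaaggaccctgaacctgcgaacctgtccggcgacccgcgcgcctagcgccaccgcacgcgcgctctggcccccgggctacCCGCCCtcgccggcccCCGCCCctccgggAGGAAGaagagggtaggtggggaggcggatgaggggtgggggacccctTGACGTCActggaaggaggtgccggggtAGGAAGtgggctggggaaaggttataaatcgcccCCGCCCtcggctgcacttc

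The Vegfa and Kdr windows each held 2 matches to GGGCGG, which occurs in 32.7% of 32851 such windows. The Flt1 window held 3 of these, 2 matches to AGGAAG (29.5% of windows) and 1 to TGACGTCA (1.55%). No match to ACGTG (16.6%) was found in the 3 windows. A second RefSeq window of Vegfa, chr17:46025164-46025413, held 1 match to ACGTG and 1 to GGGCGG. These are descriptions of the letters in these windows. In the GENCODE annotation of GRCm38, the protein-coding genes themselves lie on the minus strand, Vegfa at chr17:46016993-46032369, Kdr at chr5:75932827-75978458 and Flt1 at chr5:147561604-147726011.

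Vegfa, which encodes the main ligand of Kdr, was detected in most endocrine cells. Levels are in CPM, a gene's UMIs as a share of all UMIs of its class on the usual scale, and are compared within a gene only. In library 1 it stood at 147 CPM in beta cells (95% Poisson interval 142 to 153), 160 in alpha, 229 in delta and 96.2 in PP cells. In the joint table the levels were 132 (130 to 134), 178, 274 and 94.0. Delta cells were highest and PP cells lowest in both tables, and the joint intervals of the 4 classes did not overlap, although they cover counting error only. A UMI of Vegfa was found in 98.1% of beta cells of library 1 (median 39330 UMIs a cell) and 88.1% of those of the joint table (median 20019).

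The order of the endocrine classes depended on what the UMIs were divided by. Insulin took most UMIs of a beta cell. With the hormone genes Ins1, Ins2, Iapp, Gcg, Sst, Ppy and Pyy left out of the total, Vegfa was highest in beta cells, at 464 CPM in library 1 and 434 in the joint table. It then stood at 253 and 278 in alpha, 309 and 397 in delta, and 193 and 221 in PP cells. The joint intervals of beta (428 to 440) and delta cells (358 to 439) overlapped on this scale. Those of library 1 (447 to 481 and 240 to 391) did not. PP cells stayed lowest on both scales. Cells were also thinned to 2000 UMIs each, which left out shallower ones (58 beta, 37 alpha, 16 delta and 3 PP cells of the joint table). A Vegfa UMI was then found in 24.0% of joint beta, 29.9% of alpha, 40.7% of delta and 18.5% of PP cells.

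**Figure D1:**
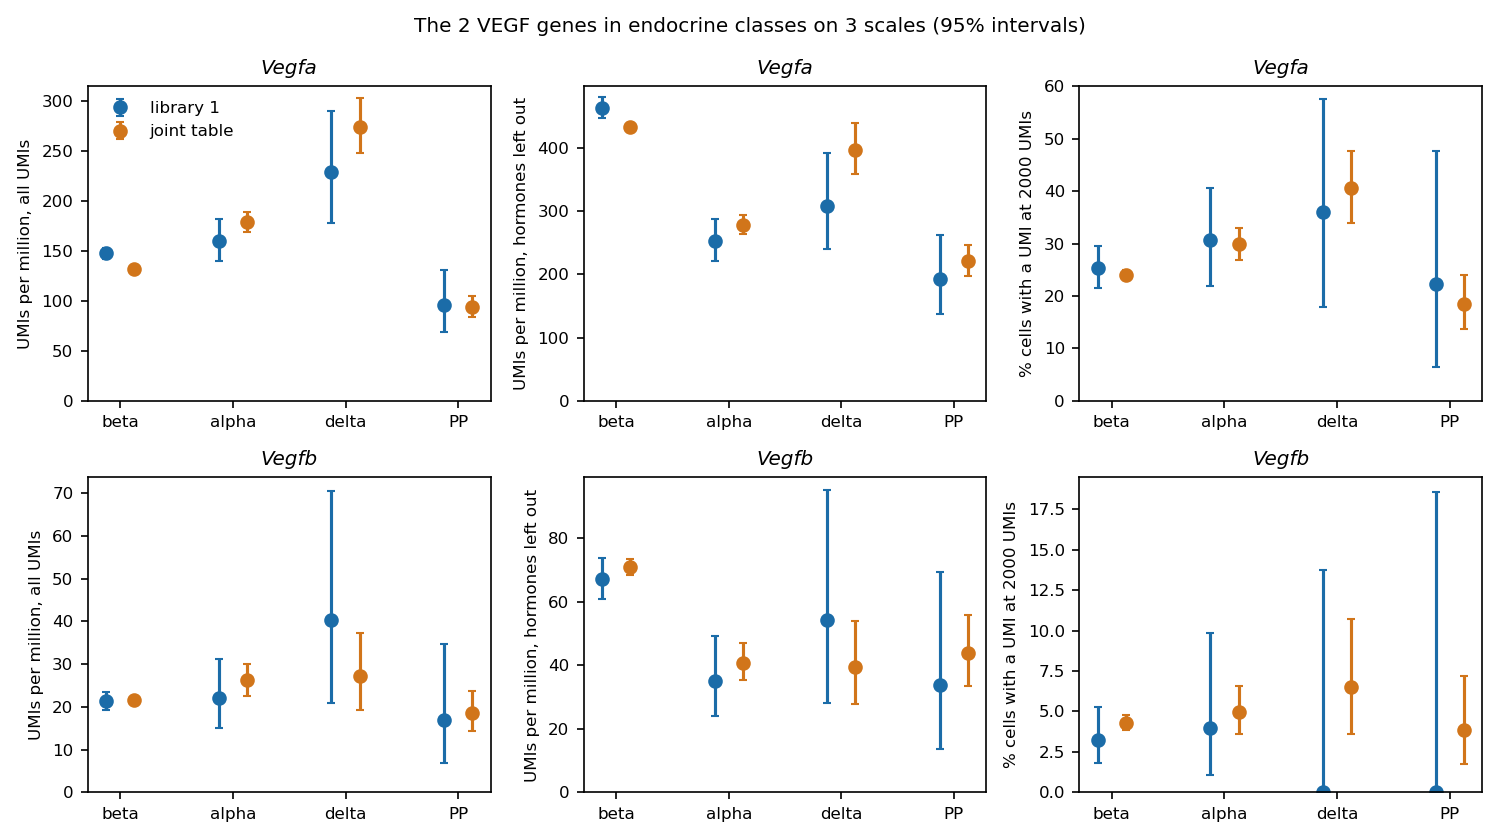
Vegfa (top) and Vegfb (bottom) in beta, alpha, delta and PP cells, as CPM of all UMIs, CPM with hormone genes left out, and % of cells with a UMI after thinning to 2000 UMIs. Points are the 2 tables and bars 95% Poisson or exact binomial intervals. Joint delta cells lead for Vegfa on the left (274) and joint beta cells in the middle (434), where the joint beta and delta intervals overlap.

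Across 10315 genes tested with limma, each column was centred on its median, which lay at -2.72 and -2.74 (log2) in beta cells of the 2 tables, -2.07 and -2.11 in alpha and -1.81 and -1.85 in delta cells. Vegfa differed by -0.34 ± 0.24 (SE, log2) between alpha and beta cells (limma, adjusted p = 0.684) and by -0.15 ± 0.24 between delta and beta cells (adjusted p = 0.849). Neither passed the test. edgeR on summed UMIs called Vegfa lower in alpha cells (-0.63, adjusted p = 0.00803), and without centring limma gave 0.75 for delta cells (adjusted p = 0.0379).

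Vegfb encodes a ligand of Flt1. It stood at 21.3, 22.1, 40.4 and 16.8 CPM in beta, alpha, delta and PP cells of library 1, and at 21.7, 26.2, 27.2 and 18.6 in the joint table. The intervals of all 4 classes in library 1 overlapped, but in the joint table those of beta (20.9 to 22.4) and alpha cells (22.6 to 30.1) did not. With hormone genes left out the order turned, to 71.0 CPM in joint beta and 40.8 in joint alpha cells. Its limma differences were -0.59 ± 0.35 for alpha (adjusted p = 0.599) and -0.35 ± 0.35 for delta against beta cells (adjusted p = 0.724). edgeR called both lower, at -0.71 (adjusted p = 0.00248) and -0.82 (adjusted p = 0.0184).

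None of the 10 genes was called in either endocrine comparison. Of all genes, 2.72% were called higher and 1.82% lower in alpha than in beta cells, and 2.67% higher and 1.49% lower in delta cells. Only Vegfa and Vegfb reached the level filter (10 CPM in at least 2 columns) through beta, alpha or delta cells, while the other 8 passed it through the vessel classes alone. For those 8 no endocrine fold is given.

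Among beta cells, Vegfa was lowest in the cluster led by the proliferation genes Stmn1, Top2a and Cenpf, at 311 CPM without hormone genes (263 to 366, 61 cells of the joint table). The cluster led by the interferon genes Ifit1, Cxcl10 and Rsad2 stood at 358 (278 to 454, 31 cells). The other joint clusters that held beta cells lay between 424 and 470. The value of 470 (439 to 502) belonged to 498 cells in a cluster led by acinar genes (Clps, Cpa1, Reg1), whose median was 7700.5 UMIs a cell, and its interval overlapped that of the cluster led by Mt2, Ucn3 and Atf5 (467, 452 to 482). In library 1 the clusters that held beta cells ranged from 389 to 565, with the highest value (486 to 654) in 27 cells led by Gm26917, Mlxipl and Olfm4.

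Both VEGF genes fell in endothelial-like cells against the mean of beta, alpha and delta cells. Vegfa stood at 17.4 CPM in library 1 (5 UMIs) and 20.6 in the joint table (50 UMIs), a difference of -3.70 ± 0.19 (limma, adjusted p = 3.04e-06). Vegfb stood at 10.4 and 9.49, a difference of -1.62 ± 0.29 (adjusted p = 0.00151) that did not pass without the level filter (-1.31, adjusted p = 0.0660). Insulin RNA was also present in these cells. In the joint table insulin UMIs in endothelial-like cells were at 14.2% of the beta level and Vegfa at 15.6% (11.6 to 20.6%), an interval that holds the insulin share. Insulin also set the classes: beta cells had at least 3000 of 10000 UMIs, and cells over any hormone threshold were kept out of the non-endocrine classes. The insulin share was thus bounded by the class rule, and nothing is read from its nearness to the Vegfa share. The same pair was 14.6% and 15.6% in mural-like cells and 15.4% and 15% in macrophage-like cells. In library 1 insulin was at 1.27% and Vegfa at 11.8% (3.83 to 27.5%) of the beta level in endothelial-like cells, from 5 UMIs in 2 cells. The pair there was 2.60% and 10.8% (0.274 to 60.4%, 1 UMI) in mural-like cells. It was 2.21% and 44.4% (26.3 to 70.2%, 18 UMIs) in macrophage-like and 0.563% and 69.0% (55.5 to 84.7%, 91 UMIs) in fibroblast-like cells. Of those 91 UMIs, 53 lay in 1 of 32 fibroblast-like cells, a spread the Poisson interval does not cover. Other pairs did not match: in the joint table Vegfb was at 43.8% (27.8 to 65.8%) of the beta level in endothelial-like, 101.5% in mural-like and 45.8% in macrophage-like cells. In joint fibroblast-like cells Vegfa was at 52.6%, Vegfb at 198% (113 to 321%) and insulin at 9.89%. The part of free RNA in these levels was not tested.

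**Figure D2:**
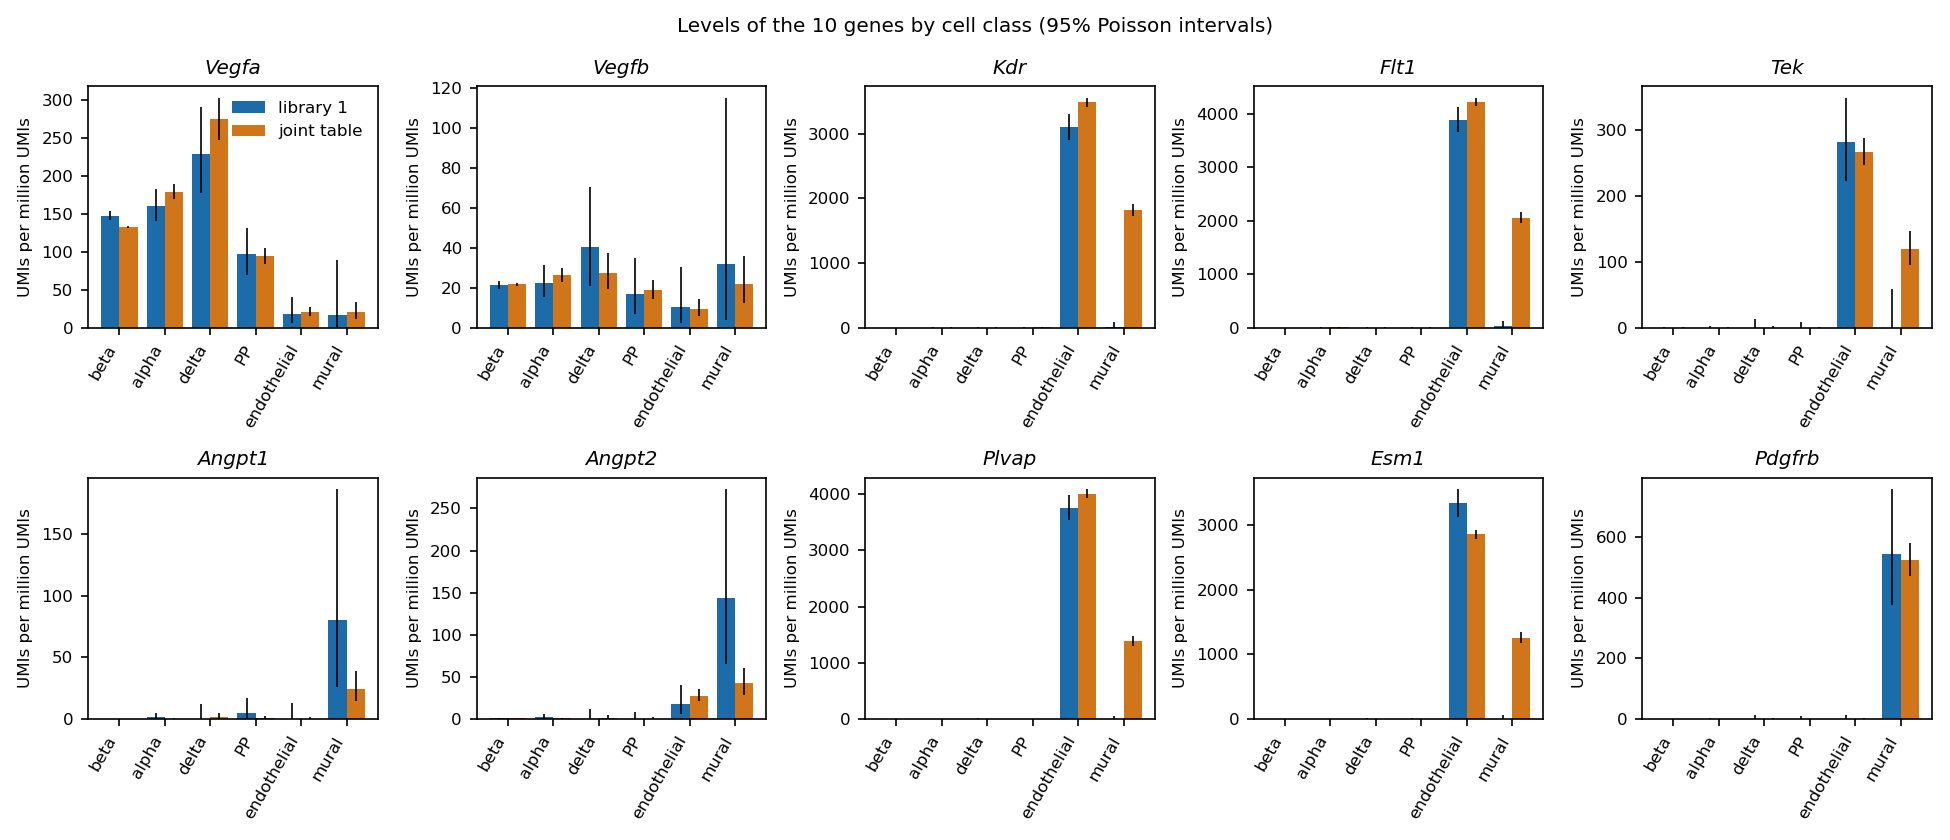
CPM of each of the 10 genes in 6 cell classes of library 1 (blue) and the joint table (orange). Bars start at 0, each panel has its own axis, and lines are 95% Poisson intervals. Vegfa is highest in endocrine cells, Kdr, Flt1 and Tek in endothelial-like cells and Pdgfrb in mural-like cells. Vegfb reaches 32.0 and 22.0 in mural-like cells, against 21.3 and 21.7 in beta cells. The joint mural-like bar of Kdr reaches 1816.

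Kdr, the main signalling receptor for Vegfa, stood at 3099 CPM in endothelial-like cells of library 1 and 3483 in the joint table. Flt1, a receptor that also binds Vegfb, stood at 3895 and 4228. In beta cells of the joint table these genes had 42 UMIs each among 6981 cells, or 0.0233% and 0.0192% of the endothelial level with hormone genes left out. In both tables the intervals of the 2 classes lay far apart. Because these genes entered the fit only through the vessel classes, their levels are given as a description, with no test against endocrine cells, and so are those of Plvap, Esm1, Tek and Angpt2. By Pearson r over the 10 columns of the fit, the genes most like Kdr were Flt1, Hspg2 and Emcn (0.995 to 0.996 of 10314 genes).

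Plvap encodes the protein of the diaphragms that span capillary fenestrae. It stood at 3753 and 4010 CPM in endothelial-like cells and was found in 99.6% of those in the joint table. Esm1, a secreted proteoglycan of endothelial cells known to respond to Vegfa, stood at 3339 and 2854. It was not detected in part of the class: 81.8% of joint and 77.8% of library 1 endothelial-like cells had an Esm1 UMI.

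Tek, the angiopoietin receptor, stood at 282 and 267 CPM in endothelial-like cells and had 8 UMIs in all joint beta cells. In all, 5 of the 10 genes were called higher and 2 lower in endothelial-like than in endocrine cells, against 21% higher and 22.8% lower among all genes tested. The 5 higher genes (Kdr, Flt1, Tek, Plvap and Esm1) had to be high in a vessel class to be tested, so nothing is read from their count.

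Angpt2, an angiopoietin that modulates Tek, was sparse. It stood at 17.4 CPM in endothelial-like cells of library 1 (5 UMIs) and 27.7 in the joint table (67 UMIs, 6.98% of cells). Beta cells held 143 Angpt2 UMIs in 139 of 6981 joint cells and 17 UMIs in library 1, or 10.0% and 15.2% of the endothelial level without hormone genes. For Kdr, Flt1, Tek, Plvap and Esm1 the joint share was at most 0.0579%. In the 3 blocks Angpt2 in beta cells was 0.943, 0.978 and 0.900 CPM. The gene overlaps Mcph1 on the opposite strand, which stood at 2.56 in joint beta cells. In joint endothelial-like cells Mcph1 stood at 4.54 CPM. Whether the counting used strand is not given in the sources used here, and any part of Mcph1 reads in the Angpt2 counts was not tested.

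Angpt1, the activating ligand of Tek, had 0 UMIs in 27 and 702 endothelial-like cells, which allows up to 0.427% of joint cells to carry an Angpt1 UMI. It sets no limit on cells that express the gene, since at this depth a UMI was seen in only 7.73% of joint mural-like cells. In mural-like cells it stood at 79.9 CPM in library 1 (5 UMIs) and 24.7 in the joint table (18 UMIs). Against a floor of 3 counts in the endothelial class of each table, these point values are 7.66-fold and 19.97-fold higher. The folds leave out the counting error of the mural-like levels (25.9 to 186 and 14.7 to 39.1 CPM). Of the 18 joint UMIs, 7 lay in 44 mural-like cells with many endothelial markers, described below. Angpt1 was among the genes called higher, having entered the fit through the mural class alone.

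Pdgfrb, the receptor for PDGF-B on mural cells, stood at 543 and 525 CPM in mural-like cells, with 0 and 1 UMI in endothelial-like cells. It too entered the fit through the mural class alone, so no test is given. The genes most like it over the 10 columns were Olfr558, Abcc9 and Aspn (r from 0.999 to 0.9997), and Abcc9 is itself one of the mural markers. Myh11, a smooth muscle myosin, divided the class without a visible gap in Pdgfrb: 76.6% of joint mural-like cells with a Myh11 UMI (67.6 to 84.1%, 111 cells) and 78.8% of those without (65.3 to 88.9%, 52 cells) had Pdgfrb, counting cells with few endothelial markers. Angpt2 stood at 144 and 42.6 in mural-like cells. Its difference from endothelial-like cells, 2.21 ± 0.68, did not pass (limma, adjusted p = 0.0516). This gene also entered the fit through vessel classes alone, so the difference is a description. The 2 tables gave 3.83 and 0.59 for it.

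The joint mural-like class held 2 kinds of cell. Of its 207 cells, 44 had UMIs of 9 to 14 of the 14 endothelial markers, and the other 163 had at most 4. Those 44 cells had a median of 7481 UMIs against 2096. They held every mural-like UMI of Kdr (1322), Flt1 (1499), Plvap (1007) and Esm1 (914) in that table. They still had Pdgfrb, in 90.9% of cells. They occurred in all 3 blocks (20, 13 and 11 cells), and none of the 12 cells of library 1 was of this kind. Whether each is 1 cell or a pair was not tested, and the division at 6 endothelial markers was set after the values were seen.

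**Figure D3:**
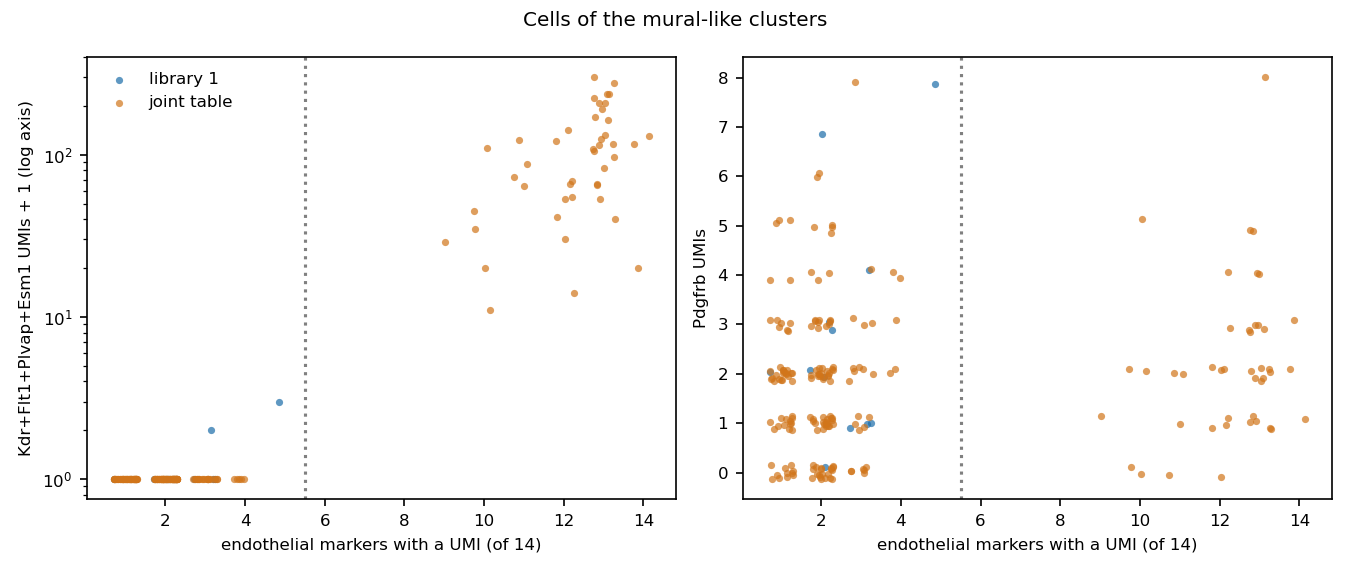
Each point is 1 mural-like cell, placed by its number of endothelial markers (of 14). The left axis, a log axis, is the summed UMIs of Kdr, Flt1, Plvap and Esm1 plus 1, and the right axis is Pdgfrb UMIs. The dotted line divides fewer than 6 from at least 6 markers. Joint cells on the left of it all have 0 UMIs of the 4 genes, and Pdgfrb is found on both sides.

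With all mural-like cells, Kdr, Flt1, Tek, Plvap and Esm1 were called lower than in endothelial-like cells, by -4.27 ± 0.97, -5.05 ± 1.22, -3.86 ± 0.83, -6.16 ± 1.42 and -5.85 ± 1.44 (limma, adjusted p from 0.0120 to 0.0210). DESeq2 gave -3.14, -3.67, -2.41, -3.46 and -3.26, and none of the 5 passed (adjusted p from 0.351 to 0.894). With a pseudocount of 0.01 Tek, Plvap and Esm1 did not pass (adjusted p from 0.0525 to 0.0676). These genes were tested because endothelial-like cells, or mural-like cells with many endothelial markers, carried them. Nothing is therefore read from these calls, and the differences are a description. Without the 44 cells, and without 15 endothelial-like cells with at least 3 mural markers, the differences were -7.79, -8.67, -4.60, -9.48 and -9.09. Leaving out cells with many endothelial markers sets this direction, so these values are a description. In the 163 remaining joint cells Kdr, Flt1, Plvap and Esm1 were at 0, which allows up to 1.84% of them to carry a UMI of each and sets no limit on cells that express it. Of the 5 genes Tek had UMIs there, 6 in 6 cells (16.7 CPM, 6.11 to 36.3), but it had 0 UMIs in the mural-like cells of library 1. In all, 2 of the 10 genes were called higher in mural-like cells and 5 lower, against 8.51% and 10.9% of all genes, and all 7 had entered the fit through vessel classes alone.

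Endothelial-like cells were next described by Esm1. Those with fewer than 2000 UMIs or with at least 3 mural markers were left out. After thinning to 2000 UMIs, the joint table had 467 cells with and 111 without an Esm1 UMI. Kdr was found in 99.4% (98.1 to 99.9%) of the first and 87.4% (79.7 to 92.9%) of the second. Nrp1, a VEGF co-receptor, was found in 94.4% and 65.8%, and Dll4, a Notch ligand of endothelial cells, in 28.9% and 12.6%. Aplnr, the apelin receptor, went the other way, in 3.0% (1.65 to 4.98%) of cells with and 34.2% (25.5 to 43.8%) of cells without Esm1. The difference for Aplnr was -31.8, -26.3 and -34.8 percentage points in the 3 blocks. Nrp2 (21.6% and 36.9%) and the ligand Vegfc (2.57% and 12.6%) were also lower with Esm1. Library 1 had 16 and 9 such cells. There Aplnr was in 0% and 44.4%. Several genes went the other way from the joint table, among them Dll4 (31.2% and 44.4%), Nrp2 (18.8% and 11.1%) and Tek (62.5% and 22.2%). So did Hey1 (18.8% and 33.3%), Jag2 (6.25% and 33.3%) and Tgfb1 (31.2% and 55.6%). In the joint table these were 12.2% and 1.80%, 17.6% and 11.7%, and 37.7% and 29.7%. Tek was in 38.3% and 46.8% of the joint cells, with overlapping intervals. Cells are not replicates, so no test was made, and the genes of this description were picked after their values were seen.

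**Figure D4:**
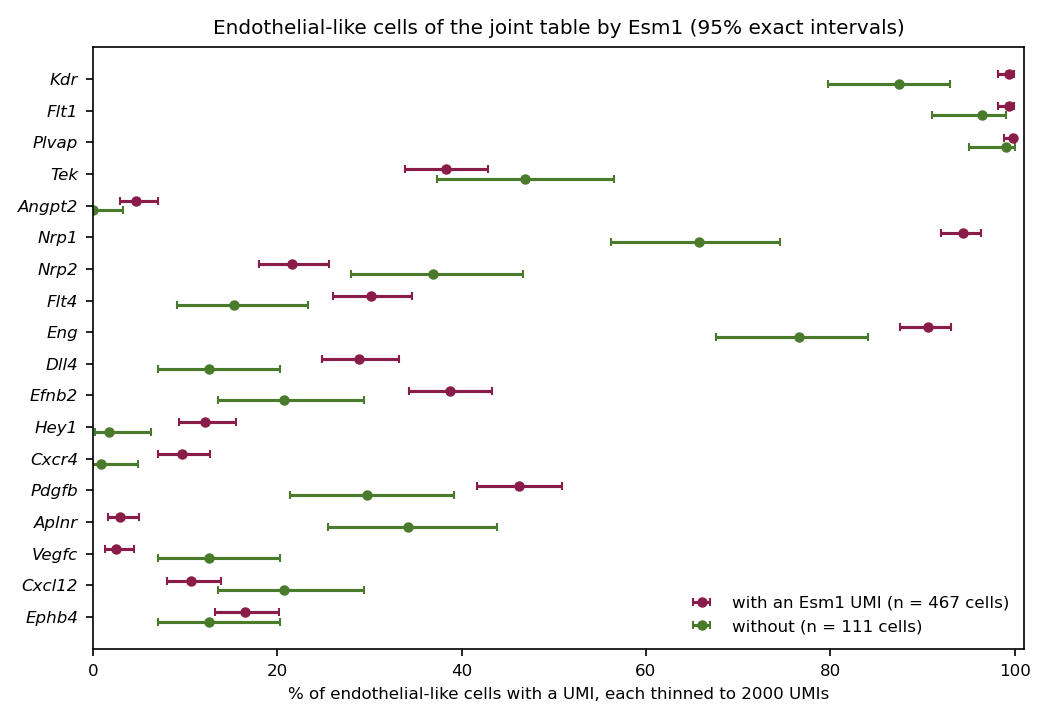
Share of joint endothelial-like cells with a UMI of each gene after thinning to 2000 UMIs, for 467 cells with and 111 without an Esm1 UMI. Lines are 95% exact binomial intervals. Aplnr (3.0% against 34.2%) and Nrp1 (94.4% against 65.8%) are far apart, and Tek and Plvap overlap.

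A list of 54 further genes of these pathways was read beside the 10, and 47 of them were tested. In alpha against beta cells none was called, while 2.72% of all genes were higher and 1.82% lower. In delta cells 1 of the 47 was higher, while 2.67% of all genes were, so nothing is read from this count. That gene was Pgf, which encodes placental growth factor, another ligand of Flt1. Pgf stood at 63.9 CPM in delta cells of library 1 and 47.2 in the joint table, against 3.98 and 4.82 in beta cells. The difference was 1.59 ± 0.36 (limma, adjusted p = 0.0431; edgeR 2.20, adjusted p = 6.55e-07), and it did not pass with a pseudocount of 0.01 (adjusted p = 0.108) or without the level filter (adjusted p = 0.464). Pgf had 0 UMIs in endothelial-like cells of both tables, and 144 and 103 CPM in mural-like cells.

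In endothelial-like cells 35 of the 47 genes were called higher and 4 lower than in endocrine cells, while 21% of all genes were higher and 22.8% lower. Of the 35, 29 reached the level filter through vessel classes alone, so nothing is read from the higher count, and the differences that follow are a description. Of 18 receptors tested, 16 were higher, led by Eng, a TGF-β co-receptor (7.15 ± 0.28), and Nrp1 (7.04 ± 0.31). The endothelin receptor Ednrb, Tie1, Ramp2, Acvrl1 and Calcrl differed by 5.17 to 5.92. All 6 Notch and ephrin genes were higher. Of 10 genes of oxygen sensing, 4 were higher, led by the hypoxia-inducible factor Epas1 (6.25 ± 0.25). Another 2 were lower, a share close to the 22.8% of all genes.

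Against endothelial-like cells, mural-like cells had 8 of the 47 genes higher and 24 lower, while 8.51% of all genes were higher and 10.9% lower. Of these, 5 of the 8 and 21 of the 24 reached the level filter through vessel classes alone, so these too are given as a description. Ednra, the other endothelin receptor, was higher by 5.73 ± 0.45, the sphingosine phosphate receptor S1pr3 by 5.40 ± 0.39, and the ligands Pgf and Pdgfa by 5.09 ± 0.36 and 4.35 ± 0.31. Ramp2, Tie1, S1pr1 and Robo4 were lower, at -4.60 to -3.96, but DESeq2 ended each of these 4 calls (adjusted p from 0.0501 to 0.876). The 44 cells with many endothelial markers are part of the mural-like class in these values. Without the mixed cells these 4 genes stood at -6.17, -5.85, -5.55 and -5.43.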

How the data were processed

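The authors deposited raw counts of UMIs per gene and cell for library 1, and natural log values for the joint table. Each joint column returned to 10000 after the log was undone, and 100% of its values were whole multiples of 1 UMI (tolerance 0.001), so UMIs were recovered. Per the submitters' processing notes, Cell Ranger 3.2.0 (library 1) or 5.0.0, FastQC 0.11.8, cutadapt 2.5 and Seurat were used with mm10. How strand was counted is not given in the sources used here. Cells needed 500 genes, 1000 UMIs and at most 20% mitochondrial UMIs. Doublets called by Scrublet with its own threshold numbered 9 (library 1), and 3, 33 and 0 per block, which was too few to use, so the highest doublet scores were removed at 0.8% per 1000 cells (6 cells, and 217, 54 and 106). Clusters (scanpy 1.11.5, Leiden resolution 1) were made without the 10 genes and the pathway list. The labels' protocols name about 10000 cells loaded per channel.

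Mean UMIs per 10000 of beta, alpha, delta, endothelial-like and mural-like cells in each table were tested as log2(value + 0.05) with limma 3.58.1, each column centred on its median and the table as a block, since classes of 1 table come from the same animals. Genes needed 0.1 per 10000 in 2 columns, and p-values were adjusted by Benjamini-Hochberg over all genes tested, with a threshold of 0.05. Such fold changes understate those of low genes. edgeR 4.0.16 and DESeq2 1.42.0 on summed UMIs were alternatives, with other pseudocounts, filters, totals and class rules. Levels and shares carry 95% Poisson and exact Clopper-Pearson intervals, which cover counting error only. The genes named were the 10, and up to 8 called pathway genes per comparison by size of difference. The genes and lists were chosen with earlier results of these data known.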

Additional observations from a re-analysis of the deposited data

How the results depend on the processing

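All 39 named differences were recomputed under each alternative, 702 values in all, of which 630 counted as unchanged. That meant the same direction and side of the threshold. With 1 table left out there was no test, and it meant a value close to the main one relative to its SE. None of the 288 values of the endothelial against endocrine comparison reversed. Most of these belong to genes tested through vessel classes alone or named for the largest differences, so nothing is read from this. Vegfa in alpha against beta cells turned to 0.30 without centring, and Vegfb to 0.0488. Vegfa in delta against beta cells turned to 0.75 without centring, 0.23 with a pseudocount of 0.25, 0.0505 without the level filter and 0.0179 without replicate 1, and Vegfb to 0.55 without centring. Vegfa in mural-like against endothelial-like cells turned to -0.13 and -0.0649 with edgeR (TMM and DESeq2 size factors), -0.0636 with DESeq2 and -0.0296 without replicate 1. The lower calls of Kdr, Flt1, Tek, Plvap and Esm1 in mural-like cells were lost with DESeq2 (adjusted p from 0.351 to 0.894), and so were those of Ramp2, Tie1, S1pr1 and Robo4 (0.0501 to 0.876). Vegfb in endothelial-like against endocrine cells did not pass without the level filter (adjusted p = 0.0660). The cause was not tested.

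Counts of genes called moved as follows. Alpha against beta cells gave 469, and 94 without the level filter, 1402 without centring (1293 higher, 109 lower), 774 with hormone genes left out, 3359 and 3628 with edgeR (TMM and DESeq2 size factors) and 2142 with DESeq2. Delta against beta cells gave 429, and 200 and 839 with pseudocounts of 0.01 and 0.25, 80 without the filter, 2904 without centring (2825 higher, 79 lower), 664 with hormone genes left out, 1963 and 2135 with edgeR and 1481 with DESeq2. The endothelial comparison gave 4515, and 2903 without the filter. The mural comparison gave 2004, and 1034 without the filter and 746 with DESeq2. Without the table as a replicate block the 4 counts were 367, 301, 4352 and 1856, and among the 10 genes only Angpt2 in mural-like cells changed its call (adjusted p = 0.04999). Leaving out 1 table leaves no test. The alternatives without mixed vessel cells and without endocrine cells of other clusters were chosen after seeing the data. The 12 mural-like cells of library 1 limit every mural value.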
